A study of Drosophila melanogaster with 6 samples.

Results

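The 10 UDP-glycosyltransferase (UGT) genes described here are Ugt35a, Ugt35b, Ugt36Ba, Ugt36Bc, Ugt37a1, Ugt37b1, Ugt37c1, Ugt58Fa, Ugt86Da and Ugt86Dd. They were taken by gene symbol from a table of 14604 Drosophila genes, which holds 35 UGT genes in all by their current RefSeq names. Heads of WT Canton S males aged 3 to 5 days were profiled by RNAseq. The 3 PQ-fed libraries came from flies that took 5 mM paraquat (PQ) with 2.5% sucrose over 12 h, and the 3 sucrose-fed libraries from flies that took 2.5% sucrose alone over the same time. PQ is a redox-cycling herbicide that is fed to flies to model Parkinson's disease. Each library holds RNA from pooled whole heads at a single dose and time, so fewer cells of a type and less RNA per cell cannot be told apart.

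UGT enzymes sit in the membrane of the endoplasmic reticulum and transfer a sugar from a UDP-sugar to small lipophilic molecules, which makes these more soluble and easier to excrete. In insects the sugar is mostly glucose, and the family acts on plant toxins, insecticides, pigments, hormones and odorants. They form part of the conjugation phase of detoxification, beside the glutathione S-transferases. In flies, Ugt35b is known for its expression in the antenna, and natural variation in Ugt86Dd is associated with resistance of larvae to nicotine.

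Levels are given in RPKM (reads scaled to gene length and to the mapped reads of the library), a unit that divides by gene length and so allows levels of different genes to be set side by side. The lowest value in the table is 1 RPKM, which between 34.8% and 35.5% of genes have, depending on the library. It was read as a floor, so a gene at 1 RPKM may have any lower level. The number of reads behind each value is unknown.

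Of the 10 genes, 7 were above the floor in at least 1 library and could be tested. The other 3, Ugt36Ba, Ugt37a1 and Ugt37c1, stood at the floor in all 6 libraries. Over the whole family 15 of 35 UGT genes were at the floor throughout, against 32.5% of all genes in the table. The current RefSeq names group the members by sequence family. Ugt35a, Ugt35b and Ugt86Dd belong to family Ugt35 (as Ugt35A1, Ugt35B1 and Ugt35C1), Ugt86Da to Ugt302 (Ugt302C1) and Ugt58Fa to Ugt317 (Ugt317A1). Ugt37a1, Ugt37b1 and Ugt37c1 carry family Ugt37 names in both nomenclatures, and Ugt36Ba and Ugt36Bc are now Ugt37C2 and Ugt37D1. All 3 members at the floor are therefore in family Ugt37, which has 8 genes in the table, 4 of them at the floor. The members have 1 to 4 exons and a coding length of 1548 to 1629 bases in the release 6 annotation. The coding length of Ugt86Dd, 1550 bases, is the only one of the 35 that is not a multiple of 3.

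The order of the 7 measured genes by level was the same in each of the 6 libraries, from Ugt35b at the top through Ugt86Da, Ugt36Bc, Ugt35a, Ugt86Dd and Ugt58Fa to Ugt37b1. Ugt35b, on chromosome 3R of dm3 from 6994219 to 6995955, averaged 144 RPKM over the 6 libraries, and the next gene, Ugt86Da, averaged 50.4 RPKM. Neighbours in this order had ranges that did not overlap over the 6 libraries, except Ugt58Fa and Ugt37b1. The lowest value of Ugt58Fa was 2.46 RPKM and the highest of Ugt37b1 was 2.65 RPKM, although Ugt58Fa was the higher of the pair in each library. The 4 most abundant genes held 92.9% to 94.2% of the summed RPKM of the measured members in PQ-fed libraries, and 95.1% to 96.5% in sucrose-fed libraries.

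**Figure D1:**
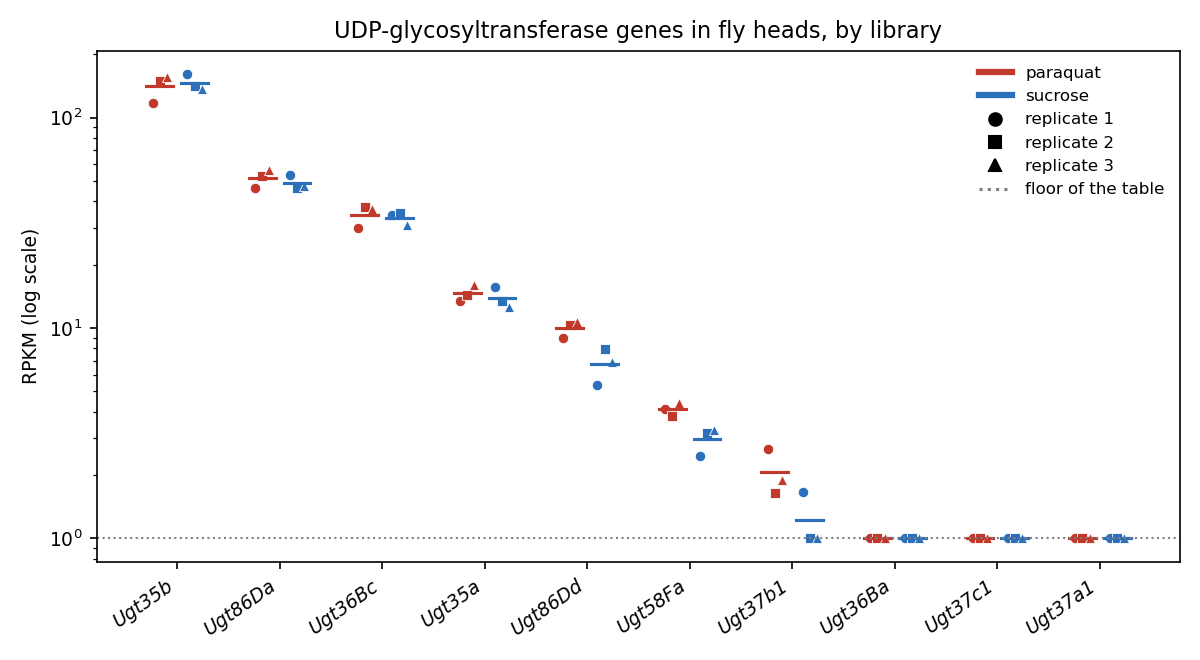
RPKM on a log scale of the 10 UGT genes in the 3 PQ-fed libraries (red, left of each pair) and the 3 sucrose-fed libraries (blue), with marker shapes for replicates, bars for group means and a dotted line at the floor of 1 RPKM. Ugt86Dd and Ugt58Fa have every PQ-fed library above every sucrose-fed library, the 4 more abundant genes have groups that overlap, and 3 genes lie on the floor.

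Ugt35a, Ugt35b, Ugt86Da and Ugt86Dd lie in 1 cluster of UGT genes on chromosome 3R, from 6952317 to 7003679 of dm3. The cluster spans 51.4 kb and holds 10 UGT genes and 3 other genes. Levels within it ran from the floor to those of Ugt35b. Ugt86Dc, Ugt86Dg, Ugt86Dh and Ugt86Dj were at the floor in every library, while Ugt86De and Ugt86Di averaged 3.64 and 2.82 RPKM over the 6 libraries. None of the intervals of the 10 members overlaps that of another gene of the table.

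**Figure D2:**
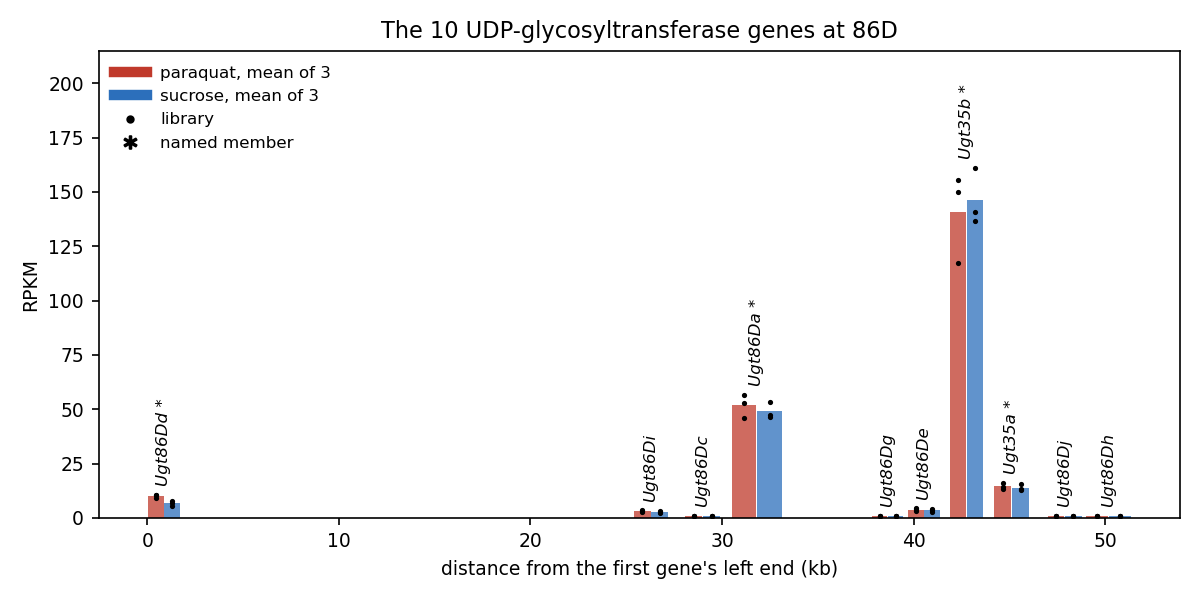
Mean RPKM of the 10 UGT genes of the chromosome 3R cluster in PQ-fed (red, left of each pair) and sucrose-fed heads (blue), with a dot for each library, plotted against distance in kb from the left end of the first gene. Asterisks mark the 4 members, and 4 genes of the cluster stand at the floor of 1 RPKM. Ugt35b and Ugt86Da carry most of the signal, and Ugt86Dd, at the left end, is the member of the cluster whose groups do not overlap.

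Changes with PQ were tested with limma on log2(RPKM + 0.5), a scale on which low genes appear to change less than they do, over all 9853 genes not at the floor throughout. At an adjusted p under 0.05, 0 of the 7 members were higher and 0 were lower, where 0.0812% of all tested genes were higher and 0% lower. With p unadjusted and under 0.05, 3 members were higher, Ugt86Dd, Ugt37b1 and Ugt58Fa, and 0 were lower, against 2.21% of all tested genes higher and 1.67% lower. The median log2 fold change of the 7 members was 0.08, with 6 positive values and 1 negative, and that of all tested genes was -0.02, with 42.2% of them positive. The study listed Ugt86Dd and Ugt37b1 as raised by PQ in this experiment, so their direction is not independent evidence. Its list came from z-scores with a Benjamini-Hochberg correction of 0.05, and the paper names more replicates than the libraries used here. Neither gene passed the adjusted limma test. A simple exact permutation test of 3 against 3 libraries cannot give a two-sided p below 0.10.

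Ugt86Dd lies on chromosome 3R (dm3, 6952317 to 6954035). It measured 8.99, 10.4 and 10.6 RPKM in PQ-fed libraries 1 to 3, against 5.36, 7.92 and 6.90 RPKM in sucrose-fed libraries 1 to 3. All 3 PQ-fed libraries were above all 3 sucrose-fed ones (two-sided exact permutation p = 0.10). The means were 10 ± 0.882 RPKM in PQ-fed and 6.72 ± 1.29 RPKM in sucrose-fed heads (SD, n = 3 each), a ratio of 1.49. This is a log2 fold change of 0.55, with 0.15 as its standard error and a 95% interval of 0.20 to 0.90 (unadjusted p = 0.00797, adjusted p = 0.951 from limma). By its unadjusted p it ranked 74 of the 9853 genes. Over all alternatives its log2 fold change lay between 0.41, without sucrose replicate 1, and 0.67, without sucrose replicate 2, and its unadjusted p stayed under 0.05. Weighting libraries by quality gave an adjusted p of 0.0263 in limma. That fit leaned mostly on PQ replicate 2 and sucrose replicate 3, with weights of 3.85 and 4.57. The adjusted p of the other alternatives lay above 0.05 and reached 1 without the filter on low values.

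Ugt58Fa lies on chromosome 2R (dm3, 18529401 to 18531420). It measured 4.11, 3.79 and 4.39 RPKM in PQ-fed libraries 1 to 3, against 2.46, 3.18 and 3.28 RPKM in sucrose-fed libraries 1 to 3. Its groups did not overlap either (two-sided exact permutation p = 0.10). The means were 4.10 ± 0.299 RPKM in PQ-fed and 2.98 ± 0.447 RPKM in sucrose-fed heads (SD, n = 3 each), a ratio of 1.38. The log2 fold change of Ugt58Fa was 0.41, standard error 0.12 (unadjusted p = 0.0111, adjusted p = 0.951 from limma). The log2 value was 0.30 without sucrose replicate 1, the lowest library of the gene, and 0.25 with libraries weighted by quality. Without both replicates numbered 1 the unadjusted p of Ugt58Fa was 0.0518 in limma, and Ugt86Da then had an unadjusted p of 0.0257. Ugt58Fa and Ugt86Dd were the 2 members with groups apart in the higher direction, and 0 were apart in the lower. Over all tested genes 3.11% were apart with PQ-fed libraries higher and 4.47% with PQ-fed libraries lower, 7.57% in all.

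Ugt37b1 lies on chromosome 2L (dm3, 6225050 to 6226842). It measured 2.65, 1.64 and 1.89 RPKM in PQ-fed libraries 1 to 3. In sucrose-fed replicate 1 it measured 1.66 RPKM, and the other sucrose-fed libraries stood at the floor of 1 RPKM. The groups overlapped by a narrow margin, since PQ replicate 2 lay just below sucrose replicate 1 (two-sided exact permutation p = 0.20). The means were 2.06 ± 0.528 RPKM in PQ-fed and 1.22 ± 0.381 RPKM in sucrose-fed heads (SD, n = 3 each). The log2 fold change of 0.58 had a standard error of 0.20 (unadjusted p = 0.0240, adjusted p = 0.951 from limma). The floor hides both the size of this difference and part of the spread of the sucrose-fed libraries. The unadjusted p was above 0.05 without PQ replicate 1 (log2 fold change 0.42), and without sucrose replicate 2 or 3 (log2 fold change 0.49 in both cases).

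The 4 most abundant members had log2 fold changes between -0.06 and 0.08, and none of them had an unadjusted p under 0.05. Ugt35b measured 117, 149.9 and 156 RPKM in PQ-fed libraries 1 to 3, against 161, 141 and 137 RPKM in sucrose-fed libraries 1 to 3. The lowest value of all 6 was that of PQ replicate 1 and the highest that of sucrose replicate 1, with the other libraries between them. Its log2 fold change was -0.06 with a 95% interval of -0.36 to 0.24 (adjusted p = 0.953 from limma). The sign turned to 0.07 without PQ replicate 1, to 0.01 without sucrose replicate 1 and to 0.14 without both.

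Ugt86Da (chromosome 3R, 6982822 to 6985468 in dm3) measured 46.1, 52.9 and 56.5 RPKM in PQ-fed libraries 1 to 3, against 53.2, 46.3 and 47.6 RPKM in sucrose-fed libraries 1 to 3. Its log2 fold change of 0.08 had a 95% interval of -0.15 to 0.30. Ugt35a, from 6996521 to 6998386 and next to Ugt35b, measured 13.4, 14.4 and 16.0 RPKM in PQ-fed libraries 1 to 3, against 15.6, 13.5 and 12.6 RPKM in sucrose-fed libraries 1 to 3. For both genes PQ replicate 3 was the highest library, and sucrose replicate 1 was the second highest. The interval of Ugt35a ran from -0.18 to 0.33 around a log2 fold change of 0.07.

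Ugt36Bc (chromosome 2L, 16799029 to 16801585 in dm3) measured 29.8, 37.4 and 36.6 RPKM in PQ-fed libraries 1 to 3, against 34.3, 35.2 and 31.0 RPKM in sucrose-fed libraries 1 to 3. Its log2 fold change was 0.04 with a 95% interval of -0.21 to 0.29. It shares a stretch of chromosome 2L with Ugt36Ba, at the floor throughout, and with Ugt36Bb, at 1.64, 1.04 and 1.28 RPKM in PQ-fed libraries 1 to 3, against 1.38, 1.11 and 1 RPKM in sucrose-fed libraries 1 to 3. The intervals of the 4 abundant genes all include 0 and end between 0.24 and 0.33, and a test that misses its threshold does not show that a gene was unchanged.

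**Figure D3:**
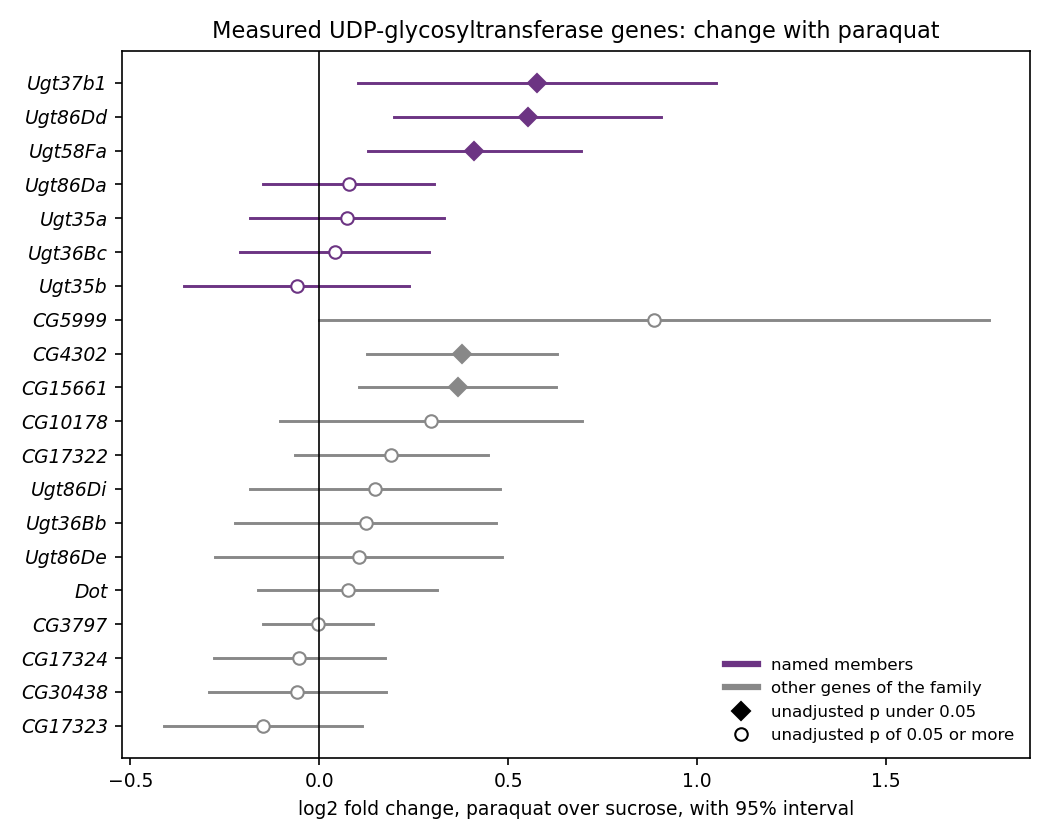
Log2 fold change on log2(RPKM + 0.5), PQ-fed over sucrose-fed, with its 95% limma interval, for the 7 measured members (purple) and the 13 other measured UGT genes (grey). Filled diamonds mark an unadjusted p under 0.05, which Ugt37b1, Ugt86Dd, Ugt58Fa, CG4302 and CG15661 have, and 0 of the 20 genes pass after adjustment. No sucrose-fed library lies above the floor for CG5999, so its direction was fixed and its interval says nothing of their spread.

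Genes of the chromosome 3R cluster were compared with each other inside each library, since such a ratio does not depend on the scaling between libraries. Ugt86Dd stood at 0.195, 0.196 and 0.188 of the level of Ugt86Da in PQ-fed libraries 1 to 3, against 0.101, 0.171 and 0.145 in sucrose-fed libraries 1 to 3. The log2 ratio was higher by 0.51 in PQ-fed heads, and the groups did not overlap (two-sided exact permutation p = 0.10, 0.15 adjusted over 6 ratios). Against Ugt35b the log2 ratio of Ugt86Dd was higher by 0.65 and against Ugt35a by 0.51, with the same exact permutation p. Ratios without Ugt86Dd differed less. Ugt35b stood at 2.54, 2.83 and 2.76 times the level of Ugt86Da in PQ-fed libraries 1 to 3, against 3.03, 3.04 and 2.87 times in sucrose-fed libraries 1 to 3. These groups did not overlap either, with a log2 ratio lower by 0.14 in PQ-fed heads (two-sided exact permutation p = 0.10, 0.15 adjusted over 6 ratios). The ratio of Ugt35b to Ugt35a had a log2 difference of -0.14 and groups that overlapped (two-sided exact permutation p = 0.20). The ratio of Ugt86Da to Ugt35a differed by 0.002 on the log2 scale (two-sided exact permutation p = 1). These pairs were chosen after the values had been seen. The ratios with Ugt86Dd share its values and repeat its difference, so they are not separate evidence. An exact permutation p of 0.10 is the smallest possible here, so no ratio could have passed a threshold of 0.05.

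In most libraries the abundant members deviated in the same direction. PQ replicate 1 lay below the gene's mean over the 6 libraries for all 4 abundant genes, with a median deviation of -0.15 on the log2 scale, while PQ replicates 2 and 3 lay above it for all 4, with medians of 0.07 and 0.14. Sucrose replicate 1 also lay above it for all 4, with a median of 0.11, although Ugt36Bc by only 0.014. Sucrose replicate 3 lay below it for all 4, with a median of -0.10, and sucrose replicate 2 for all but Ugt36Bc. Ugt86Dd and Ugt58Fa had the opposite sign in PQ replicate 1, where they lay above their means, and in sucrose replicate 1, their lowest library. In PQ replicates 2 and 3 and in sucrose replicate 3 their sign was that of the 4 abundant genes. The summed RPKM of the 10 members, with genes at the floor counted as 1, was 225, 273 and 285 in PQ-fed libraries 1 to 3, against 277, 251 and 242 in sucrose-fed libraries 1 to 3, so the groups overlapped. Same-numbered libraries of the groups were not treated as pairs.

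**Figure D4:**
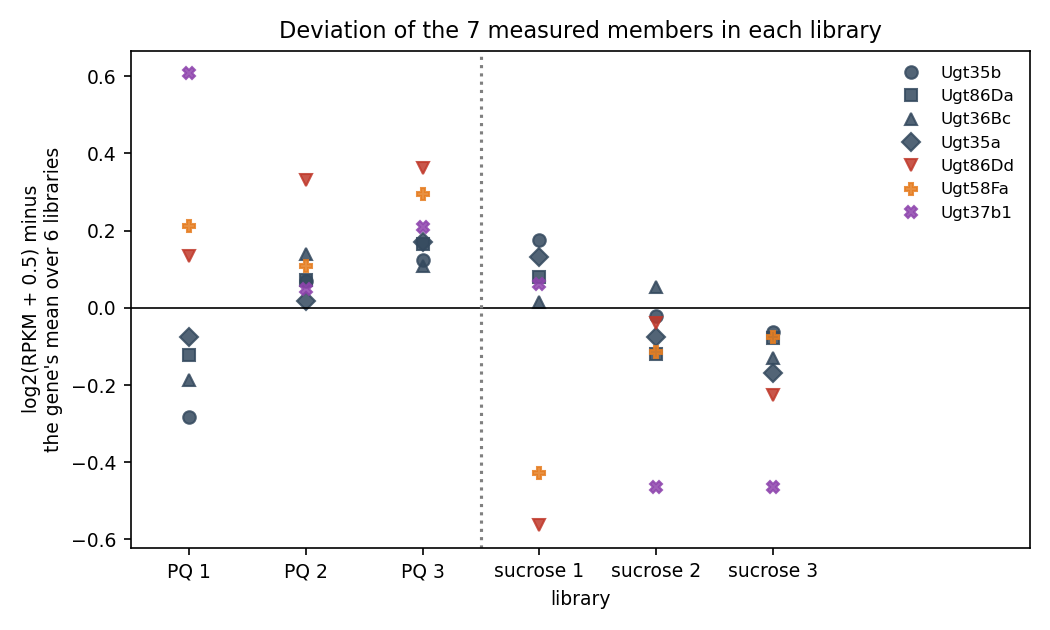
Deviation of log2(RPKM + 0.5) from the gene's mean over 6 libraries, for the 7 measured members in PQ-fed libraries 1 to 3 and sucrose-fed libraries 1 to 3. The 4 abundant genes (dark) lie below 0 in PQ replicate 1 and sucrose replicate 3 and above 0 in PQ replicates 2 and 3 and sucrose replicate 1, where Ugt36Bc is near 0, while Ugt86Dd and Ugt58Fa lie above 0 in all PQ-fed and below 0 in all sucrose-fed libraries.

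The other 25 UGT genes of the table comprised 12 at the floor throughout and 13 that were tested. Of these, 0 passed limma's test in either direction after adjustment, and 2 were higher and 0 lower with p unadjusted and under 0.05, where 2.21% of all tested genes were higher and 1.67% lower. Their summed RPKM over all 25 genes, with the floor counted as 1, was 179.0, 199.3 and 199.3 in PQ-fed libraries 1 to 3, against 171, 171 and 167 in sucrose-fed libraries 1 to 3, without overlap. Group means of this sum were 193 RPKM in PQ-fed and 170 RPKM in sucrose-fed heads. In the same order they were 39.5 and 30.4 for CG4302, 35.8 and 27.4 for CG15661, and 25.4 and 20.2 for CG10178. These genes held most of the net difference in the sum. CG4302 (now Ugt49B1) measured 41.3, 39.5 and 37.8 RPKM in PQ-fed libraries 1 to 3, against 34.8, 30.2 and 26.4 RPKM in sucrose-fed libraries 1 to 3. CG15661 (now Ugt49C1) measured 30.6, 40.8 and 35.9 RPKM in PQ-fed libraries 1 to 3, against 28.2, 28.1 and 26.1 RPKM in sucrose-fed libraries 1 to 3. The groups of both genes did not overlap, and their log2 fold changes were 0.38 and 0.37 (unadjusted p = 0.00962 and 0.0130, adjusted p = 0.951 each from limma).

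CG4302 and CG15661 are neighbours on chromosome 2R of dm3, from 17100385 to 17102485 and from 17102940 to 17105258, on the same strand with 454 bases between them. CG4302 shares 90 bases at its end with Glycogenin on the other strand, and whether reads were counted by strand is not given in the sources used here. Glycogenin averaged 54.0 RPKM in PQ-fed and 54.8 RPKM in sucrose-fed heads, a log2 fold change of -0.02. CG17322, whose interval overlaps that of CG17597, was the third of these genes with groups apart in the higher direction, as 3.11% of all tested genes were. It stood at 6.91, 5.50 and 5.53 RPKM in PQ-fed libraries 1 to 3, against 5.31, 4.93 and 5.21 RPKM in sucrose-fed libraries 1 to 3 (unadjusted p = 0.120 and adjusted p = 0.951, limma). CG10178 measured 18.9, 26.6 and 30.6 RPKM in PQ-fed libraries 1 to 3, against 19.4, 20.2 and 21.1 RPKM in sucrose-fed libraries 1 to 3, with PQ replicate 1 below all sucrose-fed libraries.

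CG5999 (now Ugt37A3), which the study named beside Ugt86Dd and Ugt37b1, stood at the floor in PQ replicate 1 and measured 4.07 and 2.60 RPKM in PQ replicates 2 and 3. None of the 3 sucrose-fed libraries lay above the floor, so it entered the test only through PQ-fed libraries. Its sign was thereby fixed and the spread of its sucrose-fed libraries is unknown, so its fold change and p are not printed here. The plot of log2 fold changes of the measured UGT genes does draw its value and interval, which are not read as evidence of a change. CG5999 is also counted among the other UGT genes that were tested. Of the 4 measured genes of family Ugt37, Ugt36Bc was well above the floor, while Ugt37b1, Ugt36Bb and CG5999 averaged under 2 RPKM over the 6 libraries.

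UGT enzymes depend on UDP-sugars. All 6 genes of a list for their synthesis and transport were measured, and 0 passed limma's test after adjustment or at an unadjusted p under 0.05. UGP, the enzyme that makes UDP-glucose, had a log2 fold change of 0.03 and sgl, which oxidizes UDP-glucose to UDP-glucuronic acid, one of -0.02. UGP measured 76.1, 93.7 and 96.9 RPKM in PQ-fed libraries 1 to 3, against 91.1, 87.4 and 82.1 RPKM in sucrose-fed libraries 1 to 3, with PQ replicate 1 again the lowest library. Pgm, Hex-A, frc and Csat lay between -0.05 and 0.05.

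Of 6 regulators of detoxification genes, 0 passed at either threshold. cnc, the fly counterpart of the oxidative stress factor NRF2, measured 51.8, 51.5 and 52.0 RPKM in PQ-fed libraries 1 to 3, against 51.7, 46.6 and 45.3 RPKM in sucrose-fed libraries 1 to 3. Its log2 fold change was 0.11, as was that of its inhibitor Keap1. Hr96, a nuclear receptor for xenobiotics, had a log2 fold change of -0.08, and maf-S, the partner of cnc, one of -0.04. The values of tgo and ss were -0.07 and -0.04.

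By a fixed measure, the root mean square difference of mean-centred log2 values over the 6 libraries, the genes most like Ugt86Dd among 7791 with a mean of at least 5 RPKM were CG3476, CG12795 and ImpL2, with differences of 0.11, 0.12 and 0.13. ImpL2, a secreted insulin-binding protein, measured 16.4, 16.8 and 16.9 RPKM in PQ-fed libraries 1 to 3, against 10.6, 12.0 and 10.8 RPKM in sucrose-fed libraries 1 to 3. Those most like Ugt37b1 were CG7529, CG16965 and the cytochrome P450 gene Cyp4e2, with differences of 0.08, 0.08 and 0.10. Cyp4e2 measured 73.0, 57.4 and 63.4 RPKM in PQ-fed libraries 1 to 3, against 59.3, 43.0 and 40.3 RPKM in sucrose-fed libraries 1 to 3. As for Ugt37b1, replicate 1 was the highest library of each group. A nearest gene exists for any gene, and the direction of those named here followed from the choice, so it adds no evidence. The match to Ugt37b1 also rests in part on sucrose replicates 2 and 3, where that gene was at the floor.

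Markers of the cell types of the head were set beside these values. All 10 neuron, 12 photoreceptor and 10 muscle markers were above the floor in at least 1 library, as were 10 of 12 glia markers, with Indy-2 and gcm at the floor. All 8 testis and accessory gland markers were at the floor. Over all tested genes 42.2% of log2 fold changes were positive. None of the photoreceptor markers had a positive value, with a median of -0.09, and 2 of the muscle markers had, with a median of -0.08. Of the neuron markers 6 were positive and of the measured glia markers 5. Of 10 markers of antenna and olfactory support cells, Obp59a and Ir8a were at the floor, and 7 of the other 8 had negative log2 fold changes, with a median of -0.50. The study listed Pbprp1, Pbprp3, Pbprp5 and Os-E, under their Obp names, as lower in this experiment, so their direction is not independent evidence. Pbprp3, Os-E and lush stood at the floor in at least 1 library. Sucrose replicate 3 stood apart for several markers of this list. Os-E measured 1, 1.64 and 6.12 RPKM in PQ-fed libraries 1 to 3, against 1.56, 1.26 and 23.1 RPKM in sucrose-fed libraries 1 to 3, and Pbprp3, lush and Pbprp1 were likewise highest in sucrose replicate 3. The summed RPKM of the list was 559, 557 and 591 in PQ-fed libraries 1 to 3, against 649, 564 and 607 in sucrose-fed libraries 1 to 3, most of it from Pbprp2. Pbprp2, the most abundant marker of the list, had a log2 fold change of -0.04. Of 9 fat body markers Fbp1 and Fbp2 were at the floor, and the sum was 893 to 1157 RPKM in PQ-fed and 834 to 1410 RPKM in sucrose-fed libraries. Of 9 hemocyte markers, several of which the study picked from this experiment, 8 had positive values and 2 were higher at an unadjusted p under 0.05, against 2.21% of all tested genes, and their sum was 73.6 to 91.3 RPKM in PQ-fed and 57.9 to 88.1 RPKM in sucrose-fed libraries. Of the 8 gut markers 5 were at the floor. In 0 of these lists did a marker pass limma's test after adjustment, and the part of cell makeup in the UGT values was not tested.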

How the data were processed

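RNAseq of heads was performed by the authors, and 3 PQ-fed and 3 sucrose-fed libraries were analysed here. Per the labels, 50-bp paired-end reads were mapped to dm3 with TopHat2 2.0, and the authors deposited 1 RPKM value per gene and library. The paper names trimmed means of M-values as normalization and more replicates than the columns used here. A table of the authors' own fold changes and p-values was not used. Depth per gene is unknown, so precision is that between replicates.

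Values were analysed as log2(RPKM + 0.5) in limma (version 3.58.1, under R 4.3.3), letting the prior variance follow the mean, with Benjamini-Hochberg adjustment over all 9853 genes left after 4751 at the floor in all libraries were removed. The procedure was tested on simulated data. RefSeq names (release 6) were joined by gene ID for 14029 genes. Members, lists and tests were chosen with earlier results of these data known. By rule, all 10 members are named, of the other UGT genes CG5999 and up to 4 with the smallest p, the measured genes of the donor and regulator lists, and the 3 genes most like Ugt86Dd and Ugt37b1. Further UGT genes and markers were named after their values were seen. The alternatives changed the pseudocount (0.1 or 1), dropped the filter or asked for a mean of 5 RPKM, used other scalings or eBayes settings, weighted libraries by quality, blocked on replicate number or omitted libraries. A further filter, 3 libraries or more above 1 RPKM, was chosen after seeing the data. Figures were drawn with matplotlib 3.10.9.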

Additional observations from a re-analysis of the deposited data

How the results depend on the processing

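Of the 7 measured members, 0 passed limma's adjusted test under every alternative except library quality weights, where 1 did (Ugt86Dd), as did 2 other UGT genes (CG4302 and CG15661). The other alternatives say little here, since 8 of them (quantile normalization, eBayes without a trend, 5 of the 6 omissions of 1 library and the omission of both replicates numbered 1) called 0 genes of the whole table. The quality weights called 245 genes in all, against 8 without them, and ranged from 0.355 for sucrose replicate 2 to 4.57 for sucrose replicate 3. PQ replicate 2 had 3.85, and the next highest weight was 0.860, for PQ replicate 3. The weighted calls thus leaned mostly on PQ replicate 2 and sucrose replicate 3. The count at an unadjusted p under 0.05, 3 members, became 6 with these weights and 1 when a mean of 5 RPKM was asked for, a filter that leaves out Ugt58Fa and Ugt37b1. It lay between 2 and 3 with 1 library left out, and was 3 without both replicates numbered 1, with Ugt86Da in place of Ugt58Fa. The members' median log2 fold change was 0.21 with library quality weights, 0.22 without both replicates numbered 1, and 0.014 to 0.16 with 1 library left out.

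Ugt35b changed sign to 0.089 with library quality weights, 0.067 without PQ replicate 1, 0.01 without sucrose replicate 1 and 0.14 without both, and lay at -0.14 without PQ replicate 3. Ugt36Bc changed sign to -0.019 without PQ replicate 2, -0.0033 without PQ replicate 3 and -0.01 without sucrose replicate 3. The cause was not tested. The other members kept their sign.

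Same-numbered libraries shared deviations for number 1 (r = 0.41, taken across genes, not independent replicates) and hardly for numbers 2 and 3 (r = 0.06 and 0.05), so the numbers were not used as pairs. With the replicate block 0 members passed, 3 stayed under 0.05 before adjustment, and their median log2 fold change was 0.08. It left 4 calls over all genes. The floor and the unknown depth limit Ugt37b1, CG5999 and the 15 UGT genes at the floor most.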
